A study of Mus musculus with 8 samples.

Results

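The angiopoietins *Angpt1* and *Angpt2*, their receptor *Tek* (Tie2), the related receptor *Tie1* and the receptor phosphatase *Ptprb* (VE-PTP) were followed in the left ventricle (LV) of mice with angiotensin II (angII) hypertrophy. The 5 genes were taken by name from a table of 46040 genes, and all 5 were among the 13542 genes that reached 1 CPM (reads on the gene relative to all counted reads) in 2 or more libraries. The set was chosen by family, with the log2 fold changes of *Angpt1* and *Tie1* between the groups already known, so that their differences between the groups are given as a description, with no test. RNA sequencing covered 8 libraries, 4 per genotype, from male C57BL/6 mice aged 5 to 7 months, which had all received angII by osmotic minipump at 0.1 mg/kg/h until day 14. One genotype was VEGFR-1 TK-/-, in which *Flt1*, the gene of VEGFR-1, lacks its intracellular tyrosine kinase domain, and the other was littermate controls. Only mice that survived to day 14 could be sampled, no library came from mice without angII, and no label gives the animal behind a library, so that the spread between libraries may be in part technical.

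For each library, the sample title gives the genotype opposite to that in its tag and library name. The names decided the grouping here, and the groups are referred to as control-tagged and TK-tagged. Differences are TK-tagged against control-tagged throughout, and every sign turns around if the titles hold. The targeted gene *Flt1* was at 56.9 to 84.3 normalized CPM in the control-tagged and at 144 to 169.6 in the TK-tagged libraries (1.19 on the log2 scale, SE 0.12, FDR = 0.00808 by edgeR's quasi-likelihood test). Counts of the entire gene hold no information on the removed domain, so that *Flt1* leaves the labels unsettled. The library names also carry the word cardiomyo although the tissue is LV, and endothelial, pericyte and fibroblast markers were present in every library. Counts on genes lay between 11449137 and 16239670 per library. The ventricular marker *Myl2* had a mean of 10749 normalized CPM in the control-tagged libraries and 12250 in the TK-tagged libraries. In the same order, the atrial marker *Myl7* had means of 0.733 and 0.749. Other atrial markers differed from it, with means of 3.75 and 4.17 for *Myl4* and of 1130 and 914 for *Nppa*. The summed atrial markers were at 787 to 1310 in the control-tagged and 503 to 1431 in the TK-tagged libraries.

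Tek is a receptor tyrosine kinase of endothelial cells. Angpt1, made mainly by mural and other mesenchymal cells, activates it and favours quiescent, tight vessels, whereas Angpt2, released by endothelial cells, blocks or weakly activates it according to context. Tie1 binds no angiopoietin with high affinity and modulates Tek, and Ptprb removes phosphate from Tek and so lowers its activity. In bulk LV tissue, fewer cells of a type and less RNA per cell cannot be told apart.

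Upstream sequences are shown for *Tek* and *Tie1* only. RefSeq promoter windows (GRCm38.p6) were at hand for these 2 of the 5 genes, and not for *Angpt1*, *Angpt2* and *Ptprb*. Capitals mark GGAA, the core of ETS factor motifs, or its reverse complement TTCC. The 250 bases before the start of *Tek* (chr4:94739039-94739288, plus strand) held 2 matches. For *Tie1*, RefSeq and GENCODE place the start 212 bases apart, and only the 38 bases before both starts are shown (chr4:118490062-118490099, minus strand), with 2 matches.
Tek: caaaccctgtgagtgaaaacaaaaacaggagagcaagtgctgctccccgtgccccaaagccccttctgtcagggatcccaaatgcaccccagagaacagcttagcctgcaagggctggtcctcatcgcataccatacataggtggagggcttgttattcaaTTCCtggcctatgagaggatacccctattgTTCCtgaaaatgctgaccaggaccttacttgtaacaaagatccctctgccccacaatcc
Tie1: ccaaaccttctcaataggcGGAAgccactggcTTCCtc
Over the whole 250 bases before the RefSeq start, *Tie1* held 7 matches. Of 32851 windows of this length, 93.4% held at least 1 match on either strand, with a median of 3. The forkhead motif GTAAACA and the GATA motif GATAA, present on either strand in 3.17% and 22.6% of the windows, had 0 matches in both genes. A match is a description of the letters and not a binding site.

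Levels were compared between the genes as normalized CPM per kb of exons, since longer transcripts collect more reads. *Tie1* was the most abundant at 48.6 ± 9.47 per kb (SD, n = 8), followed by *Tek* at 13.0 ± 1.98, *Ptprb* at 10.8 ± 1.99, *Angpt1* at 3.26 ± 1.44 and *Angpt2* at 2.40 ± 0.631. This order was not used to choose the genes, and its 4 neighbouring pairs were tested within the libraries by a 2-sided exact sign-flip permutation test, with Benjamini-Hochberg adjustment over the 4 pairs. *Tie1* was above *Tek* in 8 of 8 libraries, by 1.89 ± 0.15 on the log2 scale (SD, adjusted exact permutation p = 0.0104). *Tek* was above *Ptprb* in 8 of 8 libraries, by 0.27 ± 0.14 (SD, adjusted exact permutation p = 0.0104). This small difference missed the threshold of 0.05 when the longest transcript was taken as the length (0.13, adjusted exact permutation p = 0.0521). *Ptprb* was above *Angpt1* in 8 of 8 libraries, by 1.81 ± 0.73 (SD, adjusted exact permutation p = 0.0104). The raw p of these 3 pairs, 0.00781, is the smallest that 8 libraries allow. The ligands had no common order over the libraries. *Angpt1* was above *Angpt2* in 1 of 4 control-tagged libraries, with group means of 2.32 and 2.69 per kb, and in 3 of 4 TK-tagged libraries, with means of 4.20 and 2.10. Over all 8 libraries their difference was 0.37 ± 0.83 (SD, adjusted exact permutation p = 0.234), a mean over groups with opposite orders that does not show equal levels. The order in the control-tagged group depended on the length taken. With the longest transcript, *Angpt1* shortens from 5205 to 4260 bases and *Angpt2* from 3690 to 3560. The difference over all 8 libraries was then 0.61 (adjusted exact permutation p = 0.0781). Over all 8 libraries, the receptors and the phosphatase were thus above both ligands per length, with the lowest library of *Ptprb* at 8.70 and the highest of *Angpt1* at 6.21 normalized CPM per kb.

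**Figure D1:**
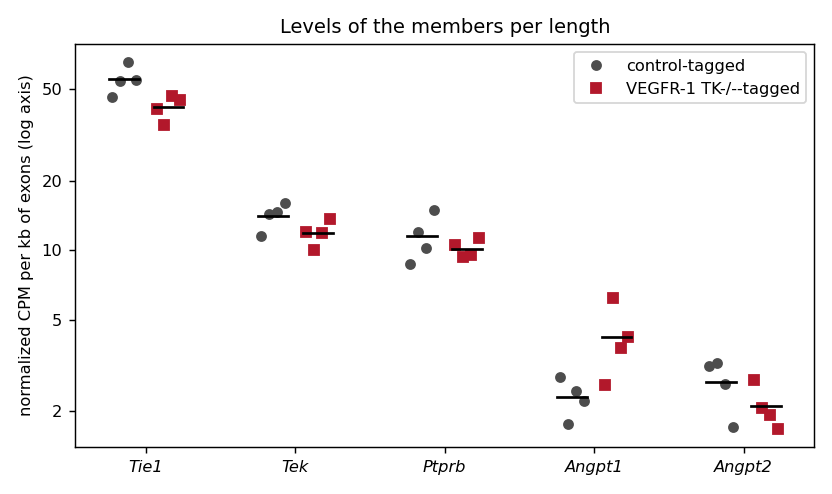
Normalized CPM per kb of exons (log axis) of the 5 genes in each library, control-tagged libraries as grey circles and TK-tagged libraries as red squares, with a line at each group mean. *Tie1* sits apart at 34.8 to 65.5, *Tek* and *Ptprb* lie close together, and the order of the ligands *Angpt1* and *Angpt2* differs between libraries.

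*Angpt1*, the activating ligand, had the largest difference between the groups among the 5 genes and the only positive one. The gene (ENSMUSG00000022309) occupies bases 42424723 to 42676977 on the minus strand of chromosome 15 (GRCm38). In the control-tagged replicates 1 to 4, it was at 14.7, 9.22, 12.8 and 11.5 normalized CPM, and in the TK-tagged replicates at 13.6, 32.3, 19.6 and 21.9. TK-tagged replicates 2, 3 and 4 were above every control-tagged library, whereas replicate 1 was among them, so that the groups overlapped. The means were 12.1 ± 2.32 and 21.8 ± 7.81 (SD, n = 4 each), a log2 fold change of 0.85 (SE 0.23). Of the 13542 genes tested, 0.377% had a higher log2 fold change. This rank is a description only, because the value was known when the set was chosen. The reads per library were 127 to 364, for which counting alone gives an error of 8.87% at the lowest count, and the SD between the TK-tagged libraries was 35.8% of their mean. TK-tagged replicate 2 was the highest library, and without it the log2 fold change was 0.60. The antisense gene *Gm17473*, with 3 to 25 reads per library, shares 737 exon bases with *Angpt1*, 14.2% of its exon length, and the handling of strand in the counting is not given in the sources used here.

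*Angpt2*, the context-dependent antagonist, was lower in the TK-tagged mean, with groups that overlapped widely. It lies on chromosome 8 from 18690263 to 18741562 on the minus strand (ENSMUSG00000031465), inside *Mcph1* on the opposite strand with 0 shared exon bases. The control-tagged replicates 1 to 4 had 11.7, 12.0, 9.75 and 6.32 normalized CPM, and the TK-tagged replicates 10.1, 7.63, 7.11 and 6.22. Control-tagged replicate 4 was near the lowest TK-tagged library, and TK-tagged replicates 1, 2 and 3 were within the range of the control-tagged group. The means were 9.93 ± 2.60 and 7.76 ± 1.65 (SD, n = 4 each), a log2 fold change of −0.36 (SE 0.21). With 78 to 165 reads per library, *Angpt2* was the least covered of the 5 genes.

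The balance of the ligands can be read within each library as the share of *Angpt1* among the reads of *Angpt1* and *Angpt2*, which does not depend on the scaling of libraries. In the control-tagged replicates 1 to 4 this share was 55.8%, 43.5%, 56.7% and 64.6%, and in the TK-tagged replicates 57.4%, 80.9%, 73.4% and 77.9%. TK-tagged replicates 2 to 4 stood above all control-tagged libraries, and replicate 1 stood among them. The 95% Wilson interval of the lowest of these 3, replicate 3, was 68.4% to 77.8%, and that of control-tagged replicate 4, the highest of its group, was 58.1% to 70.6%. On the log2 scale, the ratio of *Angpt1* to *Angpt2* reads averaged 0.30 ± 0.51 in the control-tagged and 1.45 ± 0.72 in the TK-tagged libraries (SD, n = 4 each). Intervals cover counting error only.

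**Figure D2:**
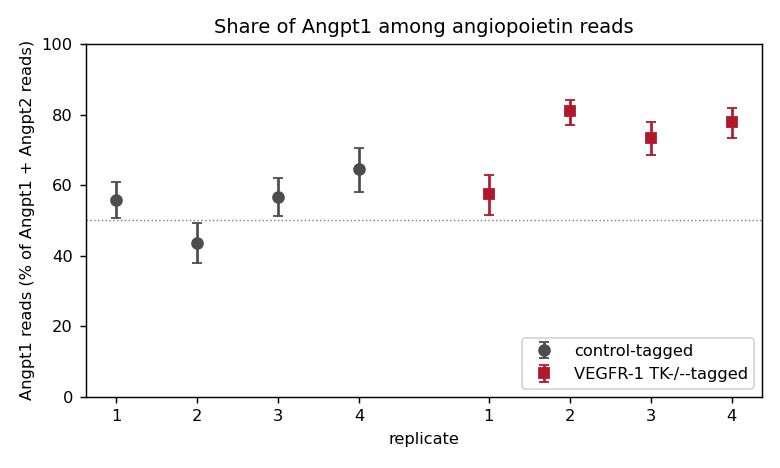
Share of *Angpt1* among *Angpt1* and *Angpt2* reads (percent) in each library, with 95% Wilson intervals as bars, control-tagged as grey circles and TK-tagged as red squares. TK-tagged replicates 2 to 4 lie between 73.4% and 80.9%, above the control-tagged range of 43.5% to 64.6%, and TK-tagged replicate 1 lies inside it at 57.4%.

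*Tie1* had the second largest difference, in the direction opposite to *Angpt1*. It lies on chromosome 4 from 118471191 to 118490061 on the minus strand (ENSMUSG00000033191), 23.6 Mb from *Tek*. In the control-tagged replicates 1 to 4, it was at 228, 267, 322 and 269.9 normalized CPM, and in the TK-tagged replicates at 201, 171, 231 and 220.0. Only control-tagged replicate 1 and TK-tagged replicate 3 crossed, and the other 3 control-tagged libraries were above every TK-tagged library. The means were 272 ± 38.4 and 206 ± 26.0 (SD, n = 4 each), a log2 fold change of −0.40 (SE 0.13). With 1930 to 4787 reads per library, *Tie1* was the most covered of the 5 genes, with a counting error of at most 2.28%. The log2 fold change was −0.48 without control-tagged replicate 1 and −0.31 without control-tagged replicate 3.

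*Tek*, the receptor of both ligands, lies on chromosome 4 from 94739289 to 94874976 on the plus strand (ENSMUSG00000006386). Its normalized CPM was 54.5, 67.7, 69.0 and 75.8 in the control-tagged replicates 1 to 4 and 56.6, 47.3, 56.3 and 64.2 in the TK-tagged replicates. Control-tagged replicates 2 to 4 were above every TK-tagged library, and replicate 1 was below 3 of them. The means were 66.7 ± 8.91 and 56.1 ± 6.89 (SD, n = 4 each), a log2 fold change of −0.25 (SE 0.12). The ratio of *Tie1* to *Tek* reads was 3.56 to 4.67 in the control-tagged and 3.43 to 4.10 in the TK-tagged libraries, with a difference of −0.15 on the log2 scale that was no larger than the SD of 0.16 within the control-tagged group.

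*Ptprb*, the phosphatase that opposes Tek, lies on chromosome 10 from 116275523 to 116389535 on the plus strand (ENSMUSG00000020154). Its normalized CPM was 116, 160.3, 137 and 199.7 in the control-tagged replicates 1 to 4 and 141, 124, 127 and 150.3 in the TK-tagged replicates. The TK-tagged libraries lay inside the range of the control-tagged group. The means were 153 ± 35.9 and 136 ± 12.1 (SD, n = 4 each), a log2 fold change of −0.18 (SE 0.15). This value depended on single libraries, since without control-tagged replicate 4, the highest, it was −0.02, and without control-tagged replicate 1, the lowest, it was −0.29. The ratio of *Ptprb* to *Tek* reads was 1.98 to 2.64 in the control-tagged and 2.26 to 2.63 in the TK-tagged libraries.

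**Figure D3:**
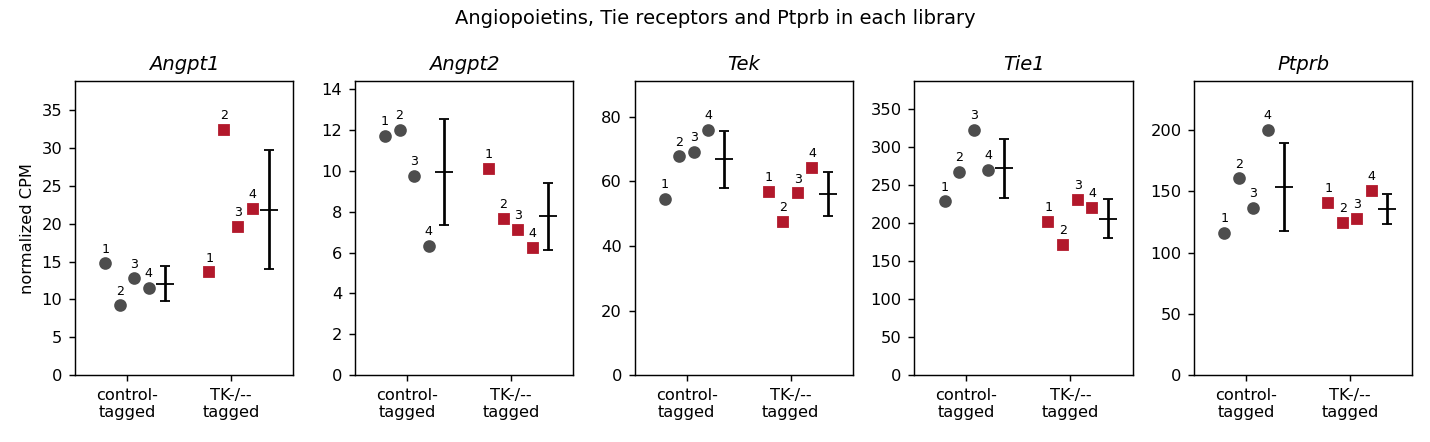
Normalized CPM of each gene in each library, with replicate numbers beside the points, control-tagged as grey circles, TK-tagged as red squares, and the mean with SD of the 4 libraries as a bar to the right of each group. In *Angpt1* 3 of 4 TK-tagged libraries are above the control-tagged range, in *Tek* and *Tie1* 3 of 4 control-tagged libraries are above the TK-tagged range, and in *Angpt2* and *Ptprb* the groups mix.

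None of the 5 genes was called between the groups by the quasi-likelihood test of edgeR over all genes (FDR under 0.1 and a fold of at least 1.5 in either direction), which called 0.00738% of the 13542 genes. This was 1 gene, the targeted *Flt1*. The likelihood ratio test of edgeR, the test named in the methods of the study, and DESeq2 each called 1 of the 5, *Angpt1*, and called 0.391% and 0.293% of the genes they tested. *Angpt1* was called as higher, as were 0.0886% of the genes by the likelihood ratio test and 0.055% by DESeq2, whereas 0 of the 5 were called lower, against 0.303% and 0.238%. In 0 of the 5 genes were the groups free of overlap, against 4.98% of all genes tested (2.46% higher and 2.53% lower). These counts are a description, because the same contrast was known when the genes were proposed.

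The members were set beside markers of the cells that carry them. Of 16 endothelial markers, 15 had a log2 fold change below 0, with a median of −0.24 and extremes of −0.62 in *Vwf* and 0.01 in *Kdr*. The quasi-likelihood test called 0 of them, with 8 lower at an unadjusted p under 0.05, the likelihood ratio test called 1, *Vwf*, and DESeq2 0. Over all genes tested 50.3% were below 0 and the median was −0.0012. An unadjusted p under 0.05 was reached by 8.96% of them in either direction. The likelihood ratio test called 0.391% and DESeq2 0.293% of the genes they tested. The summed endothelial level was 2111 to 2612 normalized CPM in the control-tagged and 1971 to 2162 in the TK-tagged libraries, and no marker was at 0 in any library. Relative to this sum, *Tek* was at 2.75% ± 0.275 in the control-tagged and 2.75% ± 0.324 in the TK-tagged libraries (SD, n = 4 each), a difference of −0.0031 on the log2 scale. *Tie1* was at 11.2% ± 0.862 and 10.1% ± 1.29 of the sum, a log2 difference of −0.15, less than its −0.40 without this reference. *Ptprb* was at 6.31% ± 1.40 and 6.64% ± 0.532, and *Angpt2* at 0.413% ± 0.124 and 0.378% ± 0.0671 (SD, n = 4 each). In all 4 genes the groups overlapped on this scale. The part of endothelial content in the lower *Tie1* and *Tek* counts was not tested.

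*Angpt1* and the markers of pericytes, the mural cells of capillaries and one of its sources, differed in opposite directions. All 9 pericyte markers had a log2 fold change below 0 (median −0.48), from −0.65 in *Kcnj8* to −0.10 in *Abcc9*. The quasi-likelihood test of edgeR called 0 of them (lowest FDR = 0.442), with 6 lower at an unadjusted p under 0.05. The likelihood ratio test and DESeq2 each called 1. Over all genes tested, 8.96% reached this unadjusted p in either direction, and these 2 tests called 0.391% and 0.293%. The summed level of the pericyte markers was 1293 to 1851 normalized CPM in the control-tagged and 960 to 1306 in the TK-tagged libraries. Relative to this sum, *Angpt1* was at 0.498% to 1.14% in the control-tagged and at 1.18% to 3.37% in the TK-tagged libraries, ranges that nearly met without overlap. The difference of mean log2 values was 1.23 for this percentage, 0.81 for the level and −0.42 for the pericyte sum that divides it. The level of *Angpt1* itself overlapped between the groups. Relative to the endothelial sum, *Angpt1* was at 0.355% to 0.699% in the control-tagged and 0.628% to 1.64% in the TK-tagged libraries, with overlap. Relative to the pericyte sum, the groups also overlapped in *Angpt2*, *Tek*, *Tie1* and *Ptprb*. The share of all genes without overlap relative to the pericyte sum was not computed. TK-tagged replicate 2 had both the highest *Angpt1* and the lowest pericyte sum, and control-tagged replicate 2 had the lowest *Angpt1* and the highest pericyte sum. Fibroblast markers, of cells that can also make Angpt1, had a median log2 fold change of −0.19, with 6 of 6 below 0 and summed levels of 1055 to 1548 and 567 to 1316. Cardiomyocyte markers had a median of 0.19, with 6 of 7 above 0 and summed levels of 48441 to 72328 and 62215 to 82342. Smooth muscle, lymphatic endothelial and leukocyte markers had medians of −0.01, −0.16 and −0.24. In these 5 lists, 0 genes were called by the quasi-likelihood test of edgeR, the likelihood ratio test or DESeq2, and 2 cardiomyocyte markers were higher and 1 leukocyte marker was lower at an unadjusted p under 0.05. The part of any of these cells in the level of *Angpt1* was not tested.

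**Figure D4:**
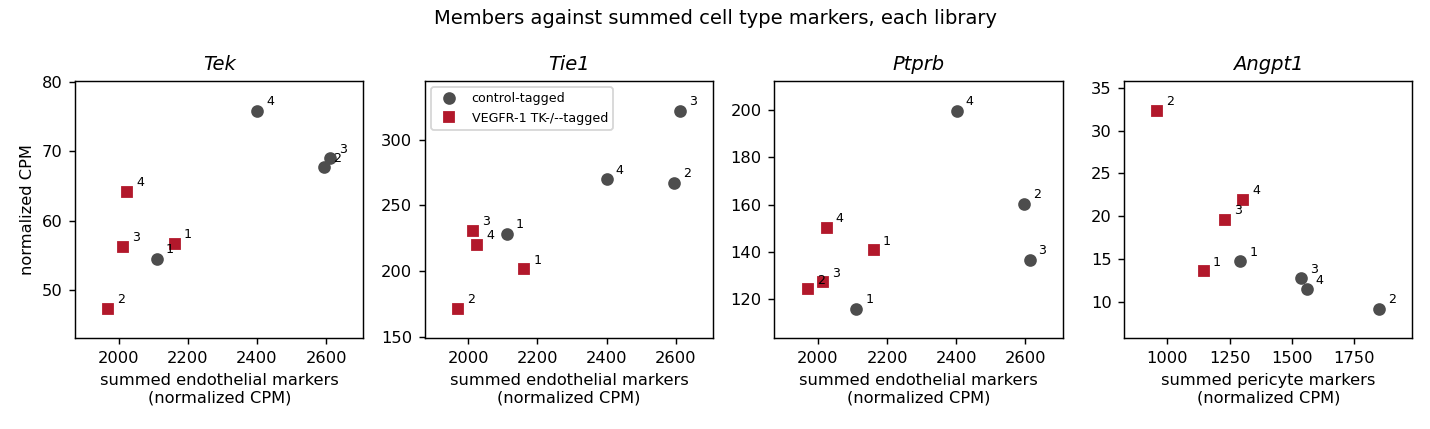
Normalized CPM of *Tek*, *Tie1* and *Ptprb* against the sum of 16 endothelial markers and of *Angpt1* against the sum of 9 pericyte markers (both in normalized CPM), 1 point per library with its replicate number, control-tagged as grey circles and TK-tagged as red squares. Control-tagged replicate 1 lies with the TK-tagged libraries on the endothelial axis, at 2111, and TK-tagged replicate 2 joins the highest *Angpt1*, 32.3, to the lowest pericyte sum, 960.

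With the group means removed, *Tek* varied with both *Ptprb* and *Tie1* over the 8 libraries. *Tek* and *Ptprb* had r = 0.83 and rho = 0.74, and *Tek* and *Tie1* had r = 0.74 and rho = 0.62. *Tie1* and *Ptprb* were less alike (r = 0.28, rho = 0.19). *Tek*, *Tie1* and *Ptprb* also varied with the endothelial sum (r = 0.59, 0.63 and 0.45, rho = 0.64, 0.55 and 0.29). With the pericyte sum they had r = 0.79, 0.67 and 0.58 (rho = 0.60, 0.48 and 0.71). *Angpt1* went against *Tek* (r = −0.53, rho = −0.29), against the endothelial sum (r = −0.62, rho = −0.50) and against the pericyte sum (r = −0.66, rho = −0.69). *Angpt2* also went against *Tek* (r = −0.57, rho = −0.45) and *Ptprb* (r = −0.61, rho = −0.43). These values describe 8 libraries that share their scaling and the mix of cells in each piece of tissue, and were not tested.

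Among 10405 other genes with a mean of at least 5 normalized CPM, the 3 with the most similar pattern were taken for each gene by r with the group means removed, over 8 libraries. For *Tek* these were *Sptan1* (r = 0.98), *Tusc3* (0.98) and *Peg13* (0.95), and for *Tie1* they were *Abr* (0.98), *Cgnl1* (0.97) and *Tppp3* (0.97). For *Ptprb* they were *Ilk* (0.96), *Rapgef2* (0.96) and *5430416O09Rik* (0.96). For *Angpt1* they were *Thg1l* (0.98), *Chchd6* (0.97) and *Homer2* (0.97), and for *Angpt2* *Parp11* (0.96), *Plxna1* (0.96) and *Ttf2* (0.95). Without removing the group means, the 3 nearest genes of *Ptprb* were the same, 2 of those of *Tie1* remained, 1 each of those of *Tek* and *Angpt2*, and 0 of those of *Angpt1*. Among so many genes, values this high over 8 libraries are no finding by themselves.

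The wider Tie pathway was described from 5 lists with 53 genes, of which 50 passed the filter on low counts. *Angpt4*, a further Tek ligand, had 2 to 8 reads per library and did not pass, and neither did the adaptor *Grb7*. *Angptl8* was not analysed here. In the TK-tagged libraries, 0 of the 50 genes were called higher and 0 lower by edgeR's quasi-likelihood test, the likelihood ratio test or DESeq2. By the quasi-likelihood test, 2 higher and 8 lower genes had an unadjusted p under 0.05, a level that 8.96% of all genes reached. The log2 fold change was below 0 in 33 of the 50 genes, with a median of −0.12.

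Of the partners of the ligands, all 5 tested genes had a log2 fold change below 0 (median −0.11). The lowest was that of *Svep1*, a matrix protein that binds Tie1, at 39.7 ± 4.97 normalized CPM in the control-tagged and 25.3 ± 7.73 in the TK-tagged libraries (SD, n = 4 each), with a log2 fold change of −0.65 (SE 0.19, edgeR quasi-likelihood FDR = 0.453). The integrin subunits *Itga5*, *Itgb1* and *Itgav*, which can bind angiopoietins, had log2 fold changes of −0.20, −0.11 and −0.03 (FDR = 0.623, 0.799 and 0.970 by edgeR).

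Adaptors and effectors downstream of Tek were split evenly, 10 above and 10 below 0 (median 0.01). *Grb14*, an adaptor that binds Tek, was at 144 ± 20.8 and 179.5 ± 7.43 normalized CPM (SD, n = 4 each), with a log2 fold change of 0.31 (SE 0.11, edgeR FDR = 0.468). The focal adhesion kinase *Ptk2* and the endothelial nitric oxide synthase *Nos3* had log2 fold changes of −0.30 and −0.32 (FDR = 0.468 and 0.521 by edgeR). *Foxo1*, the transcription factor that Tek signaling restrains through Akt, was at 28.6 ± 3.17 and 29.1 ± 2.2 normalized CPM, a log2 fold change of 0.03 (SE 0.11).

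Among the junction, shedding and phosphatase partners, 5 of 6 were below 0 (median −0.25). *Cdh5*, the junctional VE-cadherin that Ptprb binds and also 1 of the 16 endothelial markers, was at 435 ± 57.3 and 335 ± 29.1 normalized CPM (SD, n = 4 each), with a log2 fold change of −0.38 (SE 0.12, edgeR FDR = 0.464). The proteases *Adam17* and *Mmp14*, which cut receptors from the cell surface, and the phosphatase *Ptprj* had log2 fold changes of −0.25, −0.29 and −0.26 (FDR = 0.492, 0.725 and 0.642 by edgeR). *Kdr*, the gene of VEGFR-2, was at 176 ± 39.4 and 178 ± 34.5 normalized CPM, a log2 fold change of 0.01 (SE 0.17).

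Of 13 endothelial and hypoxia-related transcription factors, 12 were below 0 (median −0.25). The list is not separate from the endothelial markers, since *Erg* is also 1 of those 16. The ETS factors *Erg*, *Ets1* and *Fli1* had log2 fold changes of −0.36, −0.34 and −0.23, and the forkhead factor *Foxc2* of −0.47 with 12 to 43 reads per library (FDR = 0.506, 0.615, 0.658 and 0.642 by edgeR). The angiopoietin-like genes, relatives of the angiopoietins that do not bind Tek, were above 0 in 5 of 6 (median 0.14). The exception was *Angptl2* at 132 ± 20.5 and 104 ± 10.2 normalized CPM (SD, n = 4 each), with a log2 fold change of −0.34 (SE 0.12, edgeR FDR = 0.476). *Angptl4*, an inhibitor of lipoprotein lipase, had the highest value at 0.81 with a wide error (SE 0.51, FDR = 0.671 by edgeR), from 12.0 ± 4.46 to 21.1 ± 19.8 normalized CPM. *Angptl1*, *Angptl6* and *Angptl7* had log2 fold changes of 0.48, 0.15 and 0.13 with at most 94 reads per library (FDR = 0.762, 0.875 and 0.955 by edgeR).

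**Figure D5:**
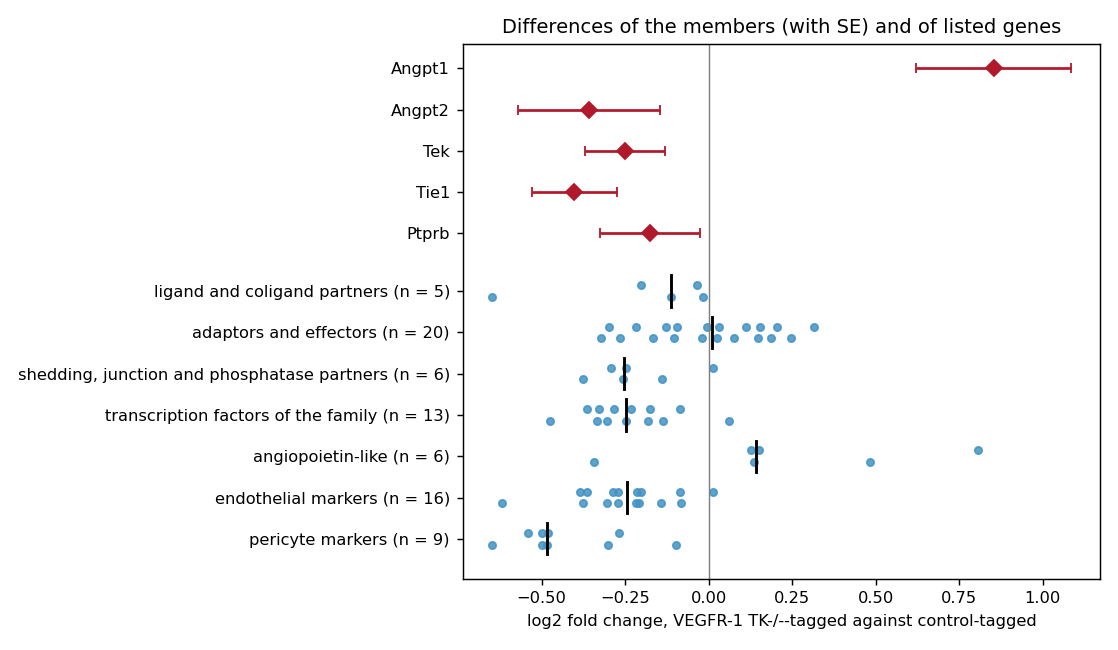
Log2 fold change, TK-tagged against control-tagged, of the 5 genes (red diamonds with SE) and of the tested genes of 5 pathway and 2 marker lists (blue points, with a black line at each list's median). *Angpt1* stands at 0.85, apart from the other 4 genes between −0.40 and −0.18, and the pericyte markers have the lowest list median, −0.48.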

How the data were processed

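LV RNA of 8 libraries was analysed. The authors trimmed reads with Trim Galore 0.4.4, aligned them to GRCm38 with STAR 2.5.4b and counted genes of GENCODE M16 with featureCounts. They deposited whole-number counts per gene without normalization. The labels name ribosomal RNA depletion and the paper poly-A selection, and the treatment of strand and of reads with several alignments is not given in the sources used here, which matters for *Angpt1* and its antisense gene.

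Genes that reached 1 CPM in 2 or more libraries were normalized with TMM and tested with glmQLFTest of edgeR 4.0.16 in R 4.3.3 over all genes. FDR is the Benjamini-Hochberg adjusted p. The SE of a log2 fold change was back-calculated, as its absolute value divided by the square root of the F statistic of this test. The likelihood ratio test and DESeq2 1.42.0 were alternatives, with other normalizations, filters, a replicate block and each library left out. Normalized CPM uses TMM library sizes, and log2 normalized CPM of single genes uses a prior count of 2. Log2 ratios of reads between members, and differences of mean log2 values given beside marker sums, use no prior count. Lengths and coordinates came from GENCODE M21. The 3 count tests and the sign-flip test were tested on simulated data with known differences. Replicates of a group differed by 6.77 to 49.9 in chi-square per degree of freedom, so that none was a copy.

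Named genes were the members, *Flt1*, up to 4 genes of lowest p per pathway list, angiopoietin-like genes, the 3 genes most alike each member and extremes of marker lists. *Foxo1*, *Myl2* and *Myl7* were added with values in view. The values of some single genes that this rule covers are not given. The members and lists were chosen with earlier results of these data known.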

Additional observations from a re-analysis of the deposited data

Results flagged for a closer look

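In 4 of 52 groups of 4 libraries looked at, 1 library lay far from the other 3 by Dixon's criterion, which chance gives in about 1 of 20 groups. The summed smooth muscle markers of control-tagged replicate 3 were 1028 normalized CPM, with the next library at 626. *Tek* as a percentage of the summed endothelial markers was 3.16% in control-tagged replicate 4, with the next library at 2.64%. *Ptprb* as a percentage of the summed pericyte markers was 12.8% in control-tagged replicate 4, with the next at 8.97%. *Tek* as a percentage of the summed pericyte markers was 4.57% in TK-tagged replicate 3, below the others at 4.91% to 4.95%. None of these was a level of a member itself.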

How the results depend on the processing

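The log2 fold change of each of the 5 genes kept its sign with each of 16 other ways to fit or choose the libraries. It ranged from 0.60 to 1.03 for *Angpt1*, −0.52 to −0.26 for *Angpt2*, −0.34 to −0.18 for *Tek*, −0.48 to −0.31 for *Tie1* and −0.29 to −0.02 for *Ptprb*, the last value without control-tagged replicate 4. Over all genes, the quasi-likelihood test called 1, the targeted *Flt1*. The likelihood ratio test called 53, DESeq2 32 and the fit with no filter on low counts 23. With a library left out, 1 to 3 were called (2 without control-tagged replicate 1, 3 without replicate 2 and 3 without replicate 4). The likelihood ratio test and DESeq2 called 1 of the 5 genes, *Angpt1*, and the other alternatives 0. No alternative called a gene of the pathway lists. The cause of these differences in count was not tested. Same-numbered libraries did not all deviate together (r from −0.06 to 0.34, against −0.49 to 0.30 for other pairs). Only 1 of 4 control-tagged libraries correlated best with its own number. So few values can neither show nor exclude a pairing by number. With the replicate block, 1 gene and 0 of the 5 were called, and *Angpt1* had a log2 fold change of 0.81. The step from *Tek* to *Ptprb* per length lost its call with the longest transcript (0.13, adjusted exact permutation p = 0.0521), because the lengths of the genes change. Of the 3 genes most alike, 0, 1 and 1 remained for *Angpt1*, *Angpt2* and *Tek* without removing the group means. Depth limits *Angpt2* most, with 78 reads in its lowest library.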
